A study of Daphnia magna with 4 samples.

Results

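A set of 108 RNA features of the water flea Daphnia magna was read at 50% or less of its unexposed level in animals kept with the herbicide atrazine, in every pairing of an exposed with an unexposed library. The members were chosen from the 14528 features of the authors' normalized table. The rule took a feature when the lower of the 2 untreated libraries was at least 4 CPM (counts per 1000000 reads) and at least 2 times the higher of the 2 atrazine libraries. A stretch of 400 consecutive feature numbers, 5178 to 5577, was left out, and 28 further features inside it met the same limits. All 108 members had enough reads to enter the count test, so none was lost to the filter on low counts.

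The libraries were made from whole animals labelled as 7 days old and adult, with 3 animals pooled in each. The 2 atrazine libraries (replicates 2 and 4) came from animals exposed for 96 hours to 40 µM atrazine with DMSO as the solvent carrier. The 2 untreated libraries (replicates 1 and 5) came from animals with no exposure. Whether these animals received DMSO is not stated, and if they did not, atrazine and its carrier cannot be told apart. The labels name no strain, clone or sex, and no batch. Totals ran from 16044118 to 17675476 reads, and within each group the libraries differed by more than counting noise: chi-square divided by its degrees of freedom came to 13.3 in the exposed pair and 95.5 in the unexposed pair.

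Daphnia is a small freshwater crustacean that mostly reproduces clonally and is a standard animal of water toxicity tests. Atrazine is a triazine herbicide that blocks photosystem II in plants, a target that animals lack. RNA from whole animals mixes all tissues, including ovary and any brood carried, so that fewer cells of a type and less RNA per cell cannot be told apart. The features carry only the letters rna and a number. Of the 26646 IDs, 0 were found in the RefSeq gene table of this species, and the files do not pair them with gene names, so neither the function of a member nor markers of the tissues can be given. At most 2 IDs are therefore named, and the other members are described by their order and values. CPM values are not divided by length, so an order of CPM between features is an order of reads and not of molecules.

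Across the members, the median level was 6.12 CPM in atrazine replicate 2 and 4.38 CPM in atrazine replicate 4, against 19.6 CPM in untreated replicate 1 and 32.2 CPM in untreated replicate 5. The lowest and highest members had 0.624 and 273.8 CPM in atrazine replicate 2, and 0.365 and 171 CPM in atrazine replicate 4. In untreated replicate 1 they had 4.3 and 556 CPM, and in untreated replicate 5 they had 5.44 and 892 CPM. The 4 medians thus stood in 4 separate steps, with replicate 4 lowest among the exposed libraries and replicate 5 highest among the unexposed ones. Together the members took 0.2% and 0.141% of the reads in atrazine replicates 2 and 4, against 0.524% and 0.784% in untreated replicates 1 and 5. That is 0.171% ± 0.0417 with atrazine and 0.654% ± 0.184 without (SD, n = 2 each). The 5 members with most reads held 34.1% of the summed untreated level. Without them the shares were 0.124% and 0.0935% in the atrazine libraries, against 0.345% and 0.518% in the untreated ones, in the same order.

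**Figure D1:**
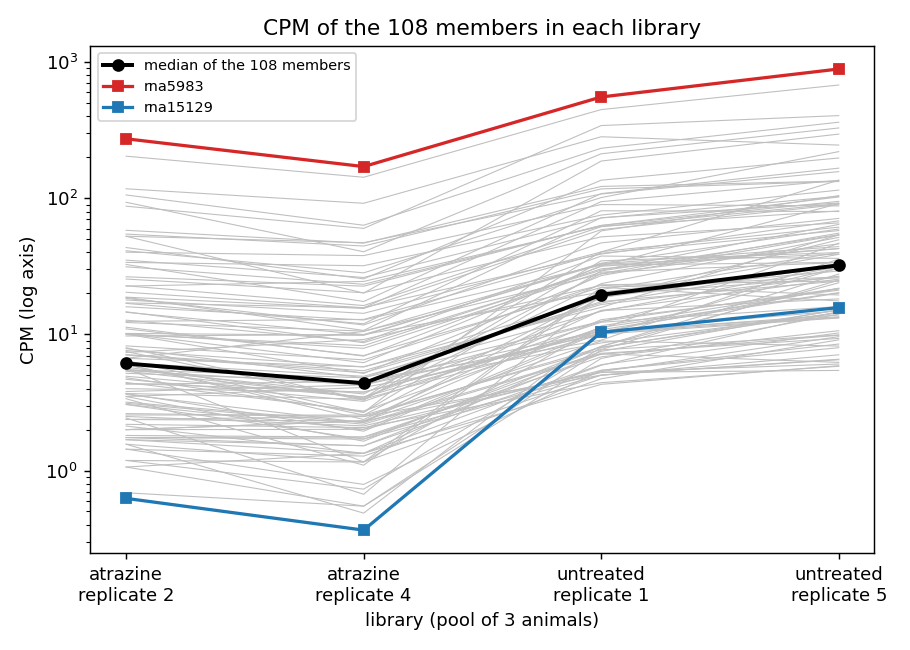
CPM on a log axis of each of the 108 members (thin lines) in the 2 atrazine libraries (left) and the 2 untreated libraries (right), with the median of the members in black and the 2 named features in colour. The median stands at 6.12 and 4.38 CPM in the atrazine libraries, and at 19.6 and 32.2 CPM in the untreated ones.

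These levels chose the members, so they describe the set and are no test of it. The ratio of the lower untreated to the higher atrazine library had a median of 2.71 over the members, with quartiles of 2.25 and 3.55. It was under 2.5 for 47 members, at least 3 for 43, at least 4 for 17 and at least 8 for 4. Ratios of 8 or more were therefore few. The 13 members with at least 100 CPM in both untreated libraries had a median ratio of 2.2 and a highest ratio of 3.91. The 29 members under 10 CPM in an untreated library had a median ratio of 3.03 and a highest ratio of 9.7. Between these limits of the lower untreated level, the 39 members at 10 to 30 CPM had a median of 2.58 and a highest of 16.6. The 27 members at 30 to 100 CPM had a median of 2.8 and a highest of 8.97. From the lowest level to the highest, ratios of at least 4 were held by 3 of 29, 9 of 39, 5 of 27 and 0 of 13 members. The member nearest the limit had a ratio of 2.01, and the closest feature outside had 1.98. In all, 15 members had a ratio under 2.1, and 14 features outside had a ratio of 1.9 or more. At the other limit, 3 members had a lower untreated level under 5 CPM, and the closest feature under 4 CPM had 3.63 CPM. None of the 12118 features that the authors left out of the normalized table could have entered, since 0 of them reached 4 CPM in both untreated libraries.

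**Figure D2:**
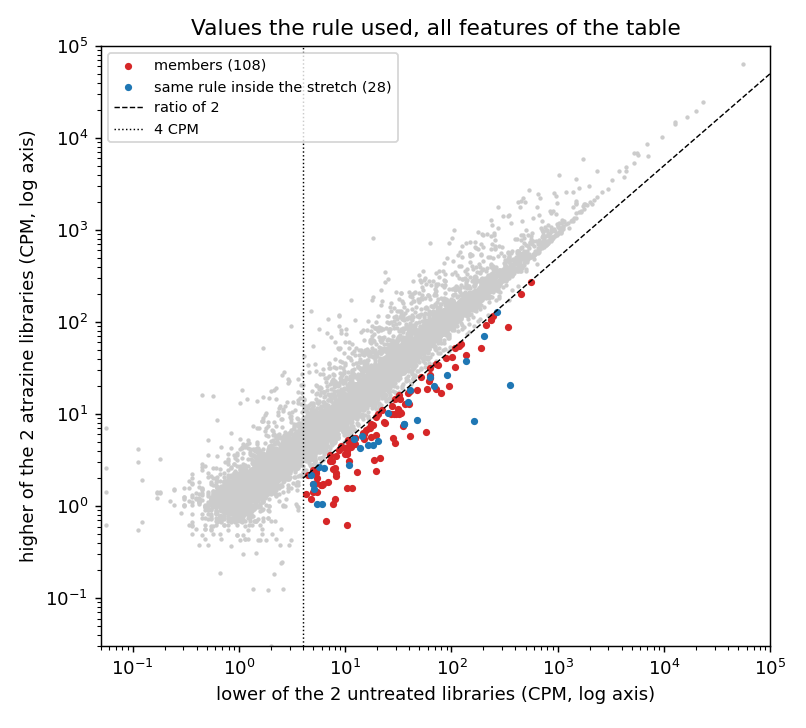
The higher of the 2 atrazine libraries against the lower of the 2 untreated libraries for the features of the normalized table, both in CPM on log axes, with the limits of the rule as a dashed line (ratio of 2) and a dotted line (4 CPM). A feature with no read in either atrazine library stands at the lower edge. The 108 members in red lie along the line, 47 of them with a ratio under 2.5, and 28 features of the left-out stretch in blue lie among them.

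Of the members, rna5983 had the highest level in unexposed animals and rna15129 had the largest ratio. Feature rna5983 had 273.8 and 171 CPM in atrazine replicates 2 and 4, against 556 and 892 CPM in untreated replicates 1 and 5. It averaged 222 ± 72.6 CPM with atrazine and 724 ± 238 CPM without (SD, n = 2 each), and edgeR gave a log2 fold change of -1.69 (SE 0.32). Its groups did not overlap, which the rule fixes for every member. The spread within each group was wide, and its ratio of 2.03 put it close to the limit. The edgeR test did not call it lower at an adjusted p under 0.05. Feature rna15129 had 0.624 and 0.365 CPM in the atrazine libraries, against 10.4 and 15.8 CPM in the untreated ones. These levels rest on 10 and 6 reads with atrazine, against 171 and 278 reads without. Its summed level was 26.7-fold lower with atrazine, with a 95% counting interval of 16.2 to 47.1, and edgeR gave a log2 fold change of -4.69 (SE 0.35). The interval is exact (Clopper-Pearson) and holds for counting error alone. It rests on reads summed within each group, so it leaves out the spread between libraries. The reads have no molecular identifiers, so it is an interval for reads and not for molecules. The feature was picked for the largest ratio among the members, and the interval makes no allowance for that choice.

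The next members by ratio differed widely in level. The member with the second largest ratio, 9.7, had 0.687 and 0.547 CPM with atrazine, against 6.66 and 14.1 CPM in untreated replicates 1 and 5. The third, with a ratio of 8.97, had a much higher level, at 6.43 and 2.68 CPM with atrazine against 57.6 and 104.6 CPM without. The fourth, with a ratio of 8.06, had 2.43 and 0.669 CPM with atrazine against 19.6 and 38.8 CPM without. No member was without reads in an atrazine library (0 of 108), and the fewest reads were 6. In both atrazine libraries 16 members had under 30 reads, so counting error is large for their ratios. Spread between libraries comes on top and does not follow read number alone. The widest edgeR SE of a member, 0.68, went with 79 and 57 reads in atrazine replicates 2 and 4.

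In the fit over all 15196 tested features, the members had a median edgeR log2 fold change of -2.06, or 4.17-fold lower with atrazine, with a median SE of 0.29. The other 10814 features outside the stretch with both untreated libraries at 4 CPM or more had a median of -0.01. The edgeR quasi-likelihood test called 72 of the 108 members lower at an adjusted p under 0.05, and 0.869% of all tested features were called lower. DESeq2 called 102 members, where it called 2.34% of all features lower, and limma-voom called 57, where it called 0.704%. The rule used this contrast, so these counts are a description. Outside the stretch edgeR called 106 features lower, of which 72 were members and 34 were not. Of these 34, 13 were under 4 CPM in an untreated library. Both atrazine libraries lay under both untreated libraries for all 108 members by the rule, and for 25.9% of the features of the normalized table.

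The edgeR test uses the gaps between the libraries of a group, so its calls depend on them in part and the following is a description. The 36 members that edgeR did not call had wider gaps. Their median fold of untreated replicate 5 over replicate 1 was 1.95, and 17 of the 36 had a gap of at least 2-fold. Among the 72 called members the median was 1.43, and 2 had such a gap. The median fold of atrazine replicate 2 over replicate 4 was 1.51 in the uncalled members and 1.26 in the called ones. The ratios of the uncalled members were lower too, with a median of 2.35 against 3.01 for the called ones. The member with the widest untreated gap had 4.93 and 3.47 CPM with atrazine, against 11 CPM in untreated replicate 1 and 46.8 CPM in untreated replicate 5.

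The call counts depended on single libraries. Without atrazine replicate 2, edgeR called 0 members, where it called 0% of all features lower. All 108 members had an unadjusted p under 0.05 in that fit, as did 4.13% of all features in the lower direction. Without atrazine replicate 4 it called 9 members, where 0.0834% of all features were called. Without untreated replicate 1 it called 106, where 3.73% of all features were called, and without untreated replicate 5 it called 72, where 1.02% were called. With no filter on low counts it called 0 members and 0.00468% of all features, and all 108 members again had an unadjusted p under 0.05, as did 5.59% of all features in the lower direction. With scaling by library size it called 92 members and 1.38% of all features lower. The legacy quasi-likelihood method called 75 members and 0.921% of all features lower, and the test on reads recovered from the deposited CPM called 72 and 0.902%, both added after seeing the data. The number of features that met the rule itself was 128 without untreated replicate 5 and 345 without untreated replicate 1. It was 177 without atrazine replicate 2 and 132 without atrazine replicate 4. Leaving out a library can only loosen the rule, so the set could not become smaller. It grew most without untreated replicate 1, when the untreated limits rested on replicate 5 alone.

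The rule takes the lower untreated and the higher atrazine library, whichever they are, so it does not fix which library of a group is higher. The members nevertheless followed the same order in most cases. Untreated replicate 5 was above untreated replicate 1 for 100 of the 108 members (92.6%), with a median log2 difference of 0.60, or 1.52-fold. Among the 10814 other features at 4 CPM or more in both untreated libraries, 42.7% were higher in replicate 5, with a median log2 difference of -0.05. At least 2-fold gaps in this direction were found for 19 members (17.6%) and for 104 of the 10814 other features (0.962%). In the opposite direction they were found for 0 members and for 112 of the 10814 other features. That background is also small, so the 0 says little about the members.

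The atrazine libraries also differed one way. Atrazine replicate 2 was above atrazine replicate 4 for 94 members (87%), with a median log2 difference of 0.40, or 1.32-fold. Among the other features at that level 41.5% were higher in replicate 2, with a median log2 difference of -0.03. At least 2-fold gaps in this direction were found for 12 members (11.1%) and for 0.157% of the other features. The full order, from untreated replicate 5 over untreated replicate 1 and atrazine replicate 2 down to atrazine replicate 4, held for 88 members (81.5%). It held for 13.6% of the 2431 features outside the stretch whose untreated libraries also lay above both atrazine libraries, at a ratio of 1 to 1.2, for 32% of the 337 such features at 1.2 to 1.5 and for 64.4% of the 146 at 1.5 to 2. Each group has 1 pair of libraries, and features are not replicates, so these differences were not tested. With TMM-scaled CPM the counts were 100 members for the untreated pair and 96 for the atrazine pair. No batch, extraction or sequencing date is given against which these orders could be set.

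**Figure D3:**
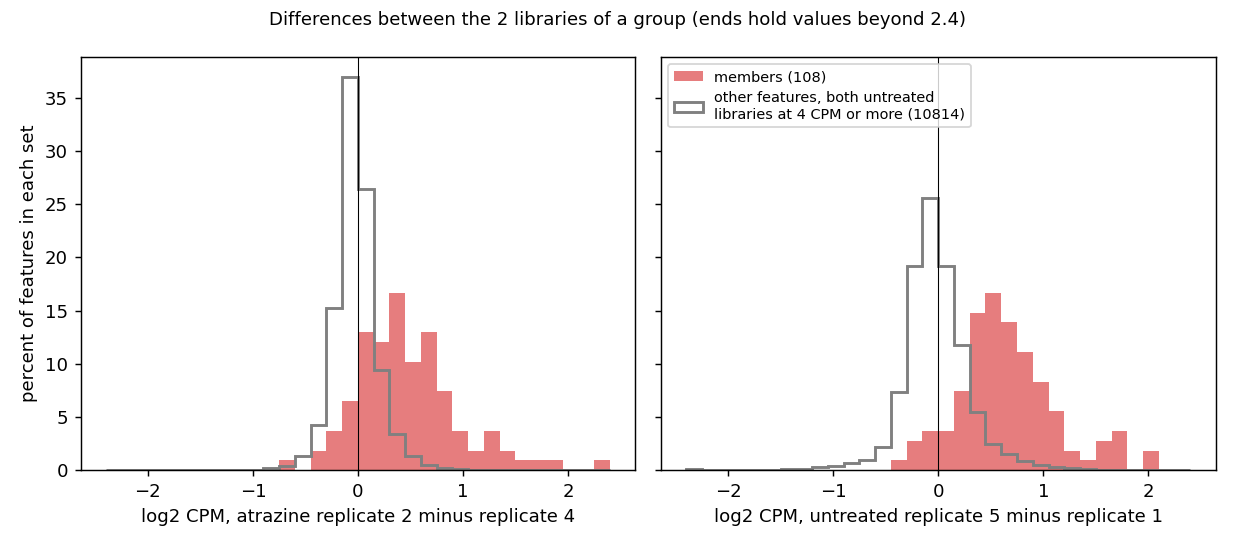
Distribution of the log2 CPM difference between the libraries of a group, in percent of each set, for the 108 members (filled) and for the 10814 other features with both untreated libraries at 4 CPM or more (line), with the atrazine pair on the left and the untreated pair on the right. The members lie mostly right of 0 in both, with medians of 0.40 and 0.60, and the other features lie around 0.

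Some members departed from these orders. In 8 members untreated replicate 1 was the higher, and the widest of these gaps was a member with 22.2 CPM in replicate 1 and 17.6 CPM in replicate 5. The same member had the widest gap of all between the atrazine libraries, at 5.62 and 1.16 CPM in replicates 2 and 4, or 90 and 19 reads. In 14 members atrazine replicate 4 was the higher, led by a member with 6.68 and 10.5 CPM in replicates 2 and 4, against 33.1 and 44.2 CPM in the untreated libraries. In 2 members both orders were turned round. Across members, the log2 difference of the untreated pair (replicate 5 minus 1) told little about that of the atrazine pair (replicate 2 minus 4), both with their sign. Pearson's r was 0.09 and Spearman's rho was 0.18 over 108 features that share the same 4 libraries.

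The same orders appeared by degree in features with smaller ratios. Among the 2431 features outside the stretch with a ratio of 1 to 1.2, 38% were higher in untreated replicate 5 and 35.9% were higher in atrazine replicate 2. Among 337 features with a ratio of 1.2 to 1.5 the shares were 64.1% and 50.7%. Among 146 features with a ratio of 1.5 to 2 they were 84.2% and 74.7%. Among the 65 members with a ratio under 3 they were 93.8% and 84.6%, and among the 43 members with a ratio of 3 or more they were 90.7% in both. Both shares thus already increased with the ratio among features below the limit.

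The choice of libraries set the size of the difference accordingly. The median fold over the members, untreated over atrazine, was 2.74 for untreated replicate 1 over atrazine replicate 2 and 3.6 for untreated replicate 1 over atrazine replicate 4. It was 4.37 for untreated replicate 5 over atrazine replicate 2 and 6.04 for untreated replicate 5 over atrazine replicate 4. A gap of at least 4-fold was found for 21 members in the closest pairing and for 81 in the widest. On the log2 scale, untreated replicate 1 lay at a median of 75.9% of the way from the mean of the atrazine libraries to untreated replicate 5.

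The mirrored rule asked for at least 4 CPM in both atrazine libraries, and for at least 2 times the higher untreated library. It was applied to the whole normalized table, including the stretch left out for the members. The features that met it shared the order of the atrazine pair with the members and had that of the untreated pair turned round. Of these 128 features, 16 (12.5%) had more in untreated replicate 5 than in replicate 1, so that replicate 5 again lay further from the atrazine libraries. Atrazine replicate 2 was above replicate 4 for 105 of them (82%), with a median fold of 1.23. In most cases, atrazine replicate 4 was therefore the further of the exposed libraries from the untreated ones for the members, and the nearer for the mirrored set. The 28 features inside the left-out stretch were chosen by the same limits, so their median log2 fold change of -2.10 is no separate likeness to the members. The orders within the groups, which the limits do not fix, were as in most members. Untreated replicate 5 was the higher for 22 of the 28, and atrazine replicate 2 was the higher for 26.

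The place of the members in the feature numbering was not used by the rule beyond the stretch it left out. IDs ran up to 26645. Per 5000 numbers from the start, members made up 0.694%, 1.11%, 1.04%, 1.37% and 0.506% of the features at 4 CPM or more in both untreated libraries. Above number 24999 there was no member (0 of 100 such features). Members were thus found along most of the numbering, but they were often close together. Another member lay within 10 numbers for 41 of the 108 (38%), whereas a member lay within 10 numbers for 9.05% of the other features at that level. Within 3 numbers these shares were 28.7% and 3.02%. The files do not say whether neighbouring numbers are neighbouring genes, transcripts of 1 gene or near copies, and nothing states how reads shared by overlapping features were counted.

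**Figure D4:**
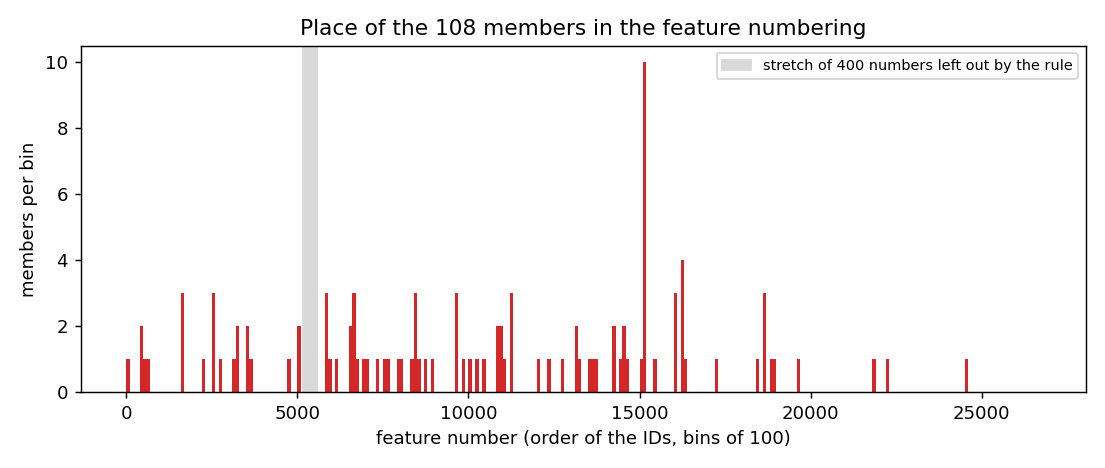
Number of members per 100 consecutive feature numbers, along the numbering of the IDs, with the left-out stretch of 400 numbers in grey. Members are found over most of the numbering, with the tallest bar around rna15129.

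In 6 pairs of members the numbers were consecutive, and the features of a pair did not always have like ratios. In the pair with the closest ratios, of 3.56 and 3.8, the first feature had 1.69 and 1.52 CPM with atrazine against 5.99 and 10.3 CPM without. The second had 1.44 and 0.79 CPM with atrazine against 5.45 and 8.5 CPM without. In the pair with the most different ratios, of 7.06 and 2.01, the first had 5.74 and 3.41 CPM with atrazine against 40.6 and 61.4 CPM without. The second had 31.4 and 23.3 CPM with atrazine against 63.1 and 102.3 CPM without.

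The densest place outside the left-out stretch lay around rna15129. There 11 members fell within 94 numbers, and no other stretch of 100 numbers held more than 5. The length of 100 was chosen after the values were seen. Their lower untreated levels ran from 7.69 to 233 CPM, and untreated replicate 5 was above replicate 1 in all 11. Their ratios had a median of 2.35, against 2.72 for the other 97 members. Feature rna15129, at 16.6, was not the only member there with a large ratio. Further ratios in this place were 7.25 and 6.1, and the rest were 3.85 or less. Of the 74 tested features of this place, the 63 that were no members had a median edgeR log2 fold change of -0.29, and 25 of them were under -0.5. At an adjusted p under 0.05 edgeR called 0 of these 63 in either direction, and 0.869% of all tested features lower. An unadjusted edgeR p under 0.05 was found for 27 of the 63 in the lower direction and 3 in the higher. In the lower direction 7.29% of all tested features had such a p. DESeq2 called 15 of the 63 lower and 1 higher, where it called 2.34% of all features lower. With limma-voom 0 of them were called, where it called 0.704% of all features lower.

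Features numbered next to a member were more often lower with atrazine even where they were no members. Of 151 tested neighbours 1 number away, 39 (25.8%) had an edgeR log2 fold change under -0.5, against 6.5% of the 14775 tested non-members outside the stretch. Their median was -0.09, against -0.00058 for all these features, and their quartiles were -0.54 and 0.14 against -0.16 and 0.18. Of these neighbours 61.6% were under 0, against 50.1% of all these features, and the gap was wider at the lower quartile than at the median or the upper quartile. Up to 3 numbers away 78 of 425 (18.4%) were under -0.5, and up to 10 numbers away 147 of 1266 (11.6%) were. Without the dense place around rna15129, 32 of 138 neighbours 1 number away (23.2%) were under -0.5. With both untreated libraries at 4 CPM or more as well, 20 of 105 (19%) were, against 4.44% of the other features at that level. The edgeR test called 3 of the 151 lower (1.99%, adjusted p under 0.05), against 0.23% of the 14775 tested non-members outside the stretch. It called 3 of the 151 higher, and 186 of the 14505 tested features of the whole normalized table. These counts of 3 are small. Whether neighbours share reads with members was not tested.

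**Figure D5:**
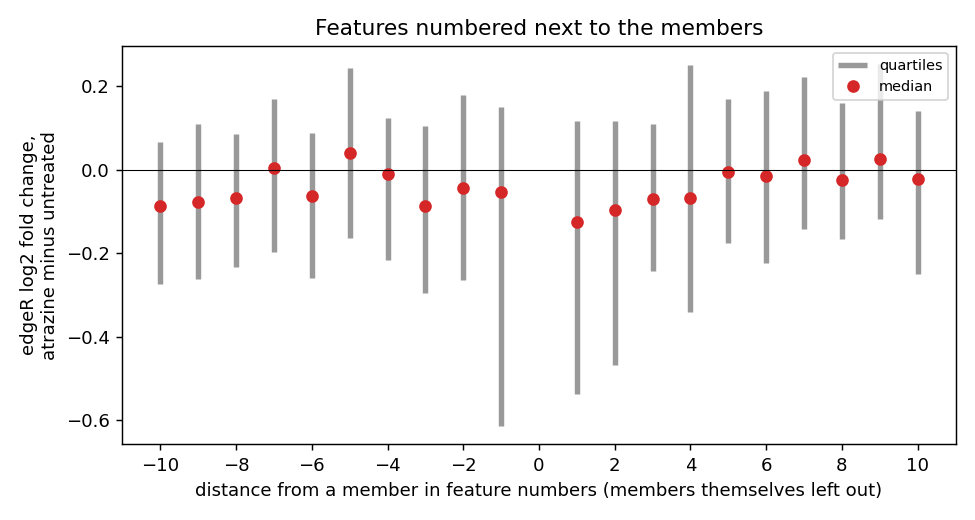
Median (points) and quartiles (bars) of the edgeR log2 fold change, atrazine minus untreated, of tested non-members by their distance from a member in feature numbers. The lower quartiles reach furthest down 1 number before and after a member, at -0.61 and -0.54, and the medians lie between -0.13 and 0.04 at every distance.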

How the data were processed

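The authors deposited a table of raw read counts and a table of CPM. Per the submitters' processing notes, FastQC, Trimmomatic, GSNAP, Subread, featureCounts and edgeR were used; the notes hold no versions or settings, and genome build and annotation are not given in any source used here. The library kit was TruSeq RNA, per the labels' protocols. The deposited CPM columns each sum to 1000000, and 100% of their values gave back the raw counts as whole reads (tolerance 1e-06). The 4 columns of each table were matched to libraries by title.

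The test on raw counts used R 4.3.3 and edgeR 4.0.16: filterByExpr (minimum count 10), TMM factors, the quasi-likelihood F test without a separate dispersion step, and Benjamini-Hochberg adjustment over all 15196 tested features. The test was checked on simulated data. Counts were drawn there for each feature independently, so the check does not cover gaps between libraries that many features share. SE is the log2 fold change divided by the square root of F. Alternatives used DESeq2 1.42.0, limma 3.58.1, other scalings and filters, and each library left out. The members, measures and the rule for the 2 named IDs (highest lower untreated CPM, largest ratio) were chosen with earlier results of these data known. Separate pools are labelled, so p-values measure the spread between pools.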

Additional observations from a re-analysis of the deposited data

How the results depend on the processing

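The median log2 fold change of the members stayed within 0.58 of -2.06 under every alternative run. This limit was taken as the spread between these same libraries, and it is wide. The median ran from -1.82 with limma on log2(CPM + 1) to -2.10 with upper-quartile scaling, and from -2.36 to -1.64 with each library left out. All 108 members kept a log2 fold change under 0, which the rule largely fixes. The number of members was 254 with a ratio of 1.5 and 43 with a ratio of 3; a minimum of 2 or 8 CPM gave 128 or 86, TMM-scaled CPM gave 97, and leaving out a library gave 128 to 345. Members called lower by edgeR numbered 0 with no filter on low counts (all 108 at an unadjusted p under 0.05, and 102 with DESeq2 after the filter) and 0 to 106 with a library left out; a group left with 1 library takes its spread from the other group. The cause was not tested. The median of number neighbours was -0.07, and -0.10 to -0.05 with a library left out. No paired analysis was possible because atrazine and untreated replicate numbers do not overlap. At 16 members with under 30 atrazine reads, depth limits the ratio.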
